A study of Mus musculus with 2 samples.

Results

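Resting effector CD8 T cells were taken here as sorted tumor cells with T cell receptor complex transcripts, CD8 transcripts, and Pdcd1 or Gzmb, but few transcripts of the cell cycle. The gates were set on raw unique molecular identifier (UMI) counts, which count captured RNA molecules per gene and cell. Cells were kept from 500 detected genes and 1000 UMIs upward, if mitochondrial genes made up no more than 15% of the UMIs. A kept cell counted as a member with at least 2 UMIs of Cd3e, Cd3d and Cd3g together, at most 2 of the macrophage genes C1qa, C1qb and C1qc, at least 1 of Cd8a and Cd8b1, none of Cd4 and Foxp3, at least 1 of Pdcd1 and Gzmb, and at most 1 of Mki67, Top2a, Cdk1 and Birc5. In all, 390 of 25402 kept cells were members. These 16 genes chose the members, so their values are given as a description.

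Live cells were sorted from tumors grown under the skin from MC38 cells, a mouse colon cancer line that carries its own Lmo7, and were made into 2 10x Genomics libraries. One library came from wild-type hosts (Lmo7+/+) and 1 from hosts that lacked Lmo7 in the whole body (Lmo7-/-), all female C57BL/6 mice of 6 to 8 weeks without further treatment. The number of mice behind each library is not given in the sources used here, and the libraries were pooled for sequencing. With 1 library per genotype there was no test between genotypes, and every interval given for a level, share or ratio is a 95% interval that covers counting error only.

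CD8 T cells recognize peptides on MHC class I molecules and kill target cells by releasing perforin and granzymes, proteases that enter the target through perforin pores. After priming, effector cells divide and then may leave the cycle while still armed. In tumors, repeated antigen contact keeps PD-1 (encoded by Pdcd1) and other inhibitory receptors on many of these cells.

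The library labelled Lmo7+/+ gave 143 members among 13542 kept cells, a share of 1.06% (exact binomial interval 0.891 to 1.24). The library labelled Lmo7-/- gave 247 members among 11860 kept cells, a share of 2.08% (1.83 to 2.36), 1.03 percentage points higher (Newcombe interval 0.721 to 1.34). The kept cells that passed the CD3 and C1q gates, taken as T cells, also differed in number, with 424 and 619. Of those T cells, members were 33.7% (29.2 to 38.4) and 39.9% (36 to 43.9), a difference of 6.18 points (0.198 to 12), and the interval included 0 with a stricter cell filter (3.15 points, -4.38 to 10.5), with no C1q UMI allowed (5.41, -1.53 to 12.2), with stricter gates (5.1, -0.412 to 10.4), with gates set after thinning (4.46, -2.93 to 11.7) and without cells holding 10 or more dendritic or fibroblast UMIs (6.19, -0.209 to 12.4). With cycling cells added, 98 of 241 effector CD8 T cells (40.7%) and 156 of 403 (38.7%) carried at least 2 cycle UMIs, a difference of -1.95 points (-9.77 to 5.76), so the resting share was not distinguishable between libraries at this depth. About 10000 sorted cells per sample were loaded according to the labels, whereas 16208 and 15163 droplets with 98582479 and 80648345 UMIs were deposited. Fewer cells of a type in a tumor and a different recovery in sorting cannot be told apart from these shares.

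The summed depth of the members was 404807 UMIs for Lmo7+/+ and 650455 UMIs for Lmo7-/-. Per cell, the median depth was 2251 and 2126 UMIs, and the median number of detected genes was 1199 and 1144. Mitochondrial genes took 5.42% and 5.35% of the UMIs, and ribosomal protein genes 18.9% and 19%. The libraries shared 279 barcodes among all droplets and 175 among kept cells. A total of 8 barcodes of members were also kept in the other library, and 1 of these barcodes was a member in both. Scrublet, a doublet caller, marked 3.26% and 2.89% of the kept cells, 3 and 2 of them members, and these cells were retained.

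Lmo7 itself (chr14:101729957-101934710, mm10), which encodes a LIM domain protein, was too rare in the members to check the labels. The members held 1 Lmo7 UMI in the library labelled Lmo7+/+ and 3 in the library labelled Lmo7-/-. Macrophage-gated host cells, defined by at least 10 C1q UMIs and no CD3 UMI, had 2.8 Lmo7 UMIs per 1000000 UMIs (CPM, 2.19 to 3.51) and 2.5 CPM (1.93 to 3.19). The genotype of each library therefore rests on its label, and a 3' tag outside a deleted stretch would not show a deletion.

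The defining markers were present at high levels and macrophage-gated cells nearly lacked them. Shares of cells with a UMI were compared after each cell was thinned to 1500 UMIs, which left 113 and 187 members and set aside 30 and 60 shallower ones. Cd8a, a chain of the CD8 coreceptor, was found in 81.4% and 86.6% of thinned members against 0.127% and 0.115% of macrophage-gated cells. Before thinning, the shares of members with Cd8a were 95.8% and 95.1%. Nkg7, a cytotoxic granule protein outside the gates, was found in 89.4% and 88.8% of thinned members against 0.279% and 0.437% of macrophage-gated cells. Gzmb, which encodes granzyme B, was found in 55.8% and 66.8% of thinned members, and Pdcd1 in 60.2% and 69%. Cd4 and Foxp3 were at 0 by the rule, and Trdc, the constant gene of the delta chain, had 0 and 1 UMIs.

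The strongest other signals in the members were housekeeping and MHC class I transcripts. Of the genes that were neither mitochondrial nor ribosomal protein genes, the most abundant were Tmsb4x, Actb, Eef1a1, Actg1, Tpt1, Cfl1, H2-D1, B2m, H2-K1 and Ptma. Il2rb, a subunit of the receptors for interleukins 2 and 15, was the leading cytokine receptor with 2423 and 2495 CPM. Among costimulatory receptors, Tnfrsf9 (4-1BB) led with 872 and 976.2 CPM. Reads over T cell receptor variable genes were too few to describe clones, with 7 and 9 UMIs over all Trbv genes together, 4 of the 7 from Trbv12-2 and 3 of the 9 from Trbv2. The others of the leading 5 (Trbv19, Trbv29 and Trbv12-1) had at most 2 UMIs in a library.

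Nkg7 was present on both sides of the gate limits, at levels that were lower just outside in most but not all cases. At the C1q limit, 5 and 9 members with 2 UMIs had 1630 and 1359 CPM, and the 1 and 5 cells with 3 UMIs had 533 and 1844 CPM. At the Cd4 and Foxp3 limits, only 1 or 2 cells per library lay just outside, too few to compare. In the Lmo7+/+ library, the 10 members with 1 CD8 UMI had 1692 CPM of Nkg7 and the 15 cells with none had 378.2 CPM. In the Lmo7-/- library, the 14 members with 1 CD8 UMI had 1118 CPM and the 15 cells with none had 958 CPM. At the limit for Pdcd1 and Gzmb, the 24 members with 1 UMI had 1394 CPM of Nkg7 and the 29 cells with none had 1667 CPM in the Lmo7+/+ library. The corresponding 43 and 48 cells of the Lmo7-/- library had 1399 and 1091 CPM. At the cycle limit, 46 and 56 members had 1 cycle UMI (1479 and 1769 CPM of Nkg7), and 17 and 20 cells just outside had 2 (995.9 and 1758 CPM).

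Granzymes of the chromosome 14 cluster had higher levels in the members of the library labelled Lmo7-/-. In mm10, this cluster holds Gzme (chr14:56117626-56120625), Gzmd (chr14:56129556-56132608), Gzmg (chr14:56156582-56159579), Gzmf (chr14:56205263-56211417), Gzmc (chr14:56231441-56234656) and Gzmb (chr14:56258838-56262260), all on the minus strand. Gzmc to Gzmg encode granzymes that are mainly found in activated mouse lymphocytes. Gzmd had 5 UMIs in the Lmo7+/+ members and 186 in the Lmo7-/- members, or 12.35 and 286 CPM, a log2 ratio of 4.53 (3.28 to 6.17). Gzme had 11 and 205 UMIs, or 27.17 and 315.2 CPM, a log2 ratio of 3.54 (2.67 to 4.56). Gzmc had 50 and 322 UMIs, or 123.5 and 495 CPM, a log2 ratio of 2.00 (1.57 to 2.46). None of these intervals crossed 0, but few Lmo7+/+ cells stood behind them, since 3 cells held 45 of the 50 Gzmc UMIs, 10 of the 11 Gzme UMIs and 4 of the 5 Gzmd UMIs. The ratio of Gzmc was 1.37 with stricter gates and 2.65 without the leading cells, and that of Gzme 5.56 with no C1q UMI.

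Gzmg had no UMI in the Lmo7+/+ members and 54 in the Lmo7-/- members (83.02 CPM), a log2 ratio of at least 3.49 against a floor of 3 counts in the library at 0. With counting error included, its lower limit was 3.14. The 54 UMIs lay in 7 of 247 cells, 26 of them in 1 cell and 47 in 3, and the bound was 2.55 without the leading cell, 2.08 after thinning and 0.62 with no C1q UMI allowed. Gzmf was the most abundant of the group, with 627.5 CPM (254 UMIs) and 1347 CPM (876 UMIs), a log2 ratio of 1.10 (0.90 to 1.31). A single Lmo7+/+ cell held 160 of its 254 UMIs, and without the leading cell of each library the log2 ratio was 2.37 (2.06 to 2.69). Gzmb, a gate gene, had 1559 and 2271 CPM, a log2 ratio of 0.54 (0.41 to 0.68). Sequence shared within this family limits the single values of Gzmd, Gzme, Gzmf and Gzmg. Among windows of 50 bases in the last 500 bases of each transcript, 20.6% of those of Gzmd also occurred in another granzyme, mostly Gzme, and 18.2% of those of Gzme, mostly in Gzmd. The share was 7.1% for Gzmf, 14.4% for Gzmg and 0 for Gzmc, Gzmb and Gzma.

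Gzma and Gzmk, which lie on chromosome 13, did not follow the cluster. Gzma, the tryptase-like granzyme A, had 156 UMIs in the Lmo7+/+ members and 58 in the Lmo7-/- members, or 385.4 and 89.17 CPM, a log2 ratio of -2.11 (-2.57 to -1.67). These UMIs lay in 11 of 143 and 12 of 247 cells, and the 3 leading cells held 66% and 67.2% of them. Gzmk had 29 and 27 UMIs, a log2 ratio of -0.79 (-1.60 to 0.02). Thus, Gzma was lower in the library labelled Lmo7-/-, in few cells, and the interval for Gzmk included 0.

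**Figure D1:**
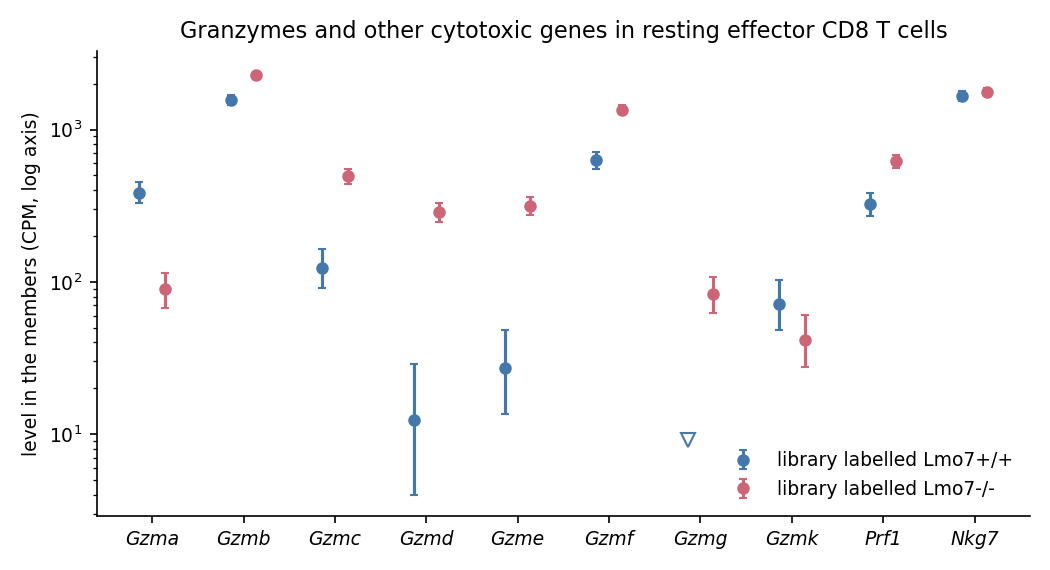
Levels of granzymes, perforin and Nkg7 in resting effector CD8 T cells (CPM, log axis) for the 2 libraries, with points for summed counts and bars for the exact 95% Poisson interval. The open triangle marks the upper limit for Gzmg, which had no UMI in the Lmo7+/+ members, while Gzmc, Gzmd, Gzme and Gzmf were higher and Gzma lower in the library labelled Lmo7-/-.

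The cluster difference was also seen in the number of cells. Before thinning, 12 of 143 Lmo7+/+ members (8.39%, 4.41 to 14.2) and 88 of 247 Lmo7-/- members (35.6%, 29.7 to 41.9) held a UMI of Gzmc, Gzmd, Gzme, Gzmf or Gzmg. At 1500 UMIs per cell the shares were 8 of 113 (7.08%, 3.11 to 13.5) and 71 of 187 (38%, 31 to 45.3), a difference of 30.9 points (21.7 to 38.8). Macrophage-gated cells gave 0.0762% and 0.161% at the same depth. The members were also split by Gzmb, itself a gate gene. Of the members with a Gzmb UMI, 11 of 89 (12.4%, 6.33 to 21) and 78 of 175 (44.6%, 37.1 to 52.3) held a cluster UMI. Of those with Pdcd1 alone, 1 of 54 (1.85%, 0.0469 to 9.89) and 10 of 72 (13.9%, 6.87 to 24.1) did, with overlapping intervals.

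Cycling CD8 T cells of the same tumors also had more cluster UMIs in the library labelled Lmo7-/-, and the CD8 and CD4 classes held too few cells to compare. At 1500 UMIs, 10 of 95 Lmo7+/+ cycling cells (10.5%, 5.16 to 18.5) and 45 of 150 Lmo7-/- cycling cells (30%, 22.8 to 38) held one, a difference of 19.5 points (9.17 to 28.5). Among CD8 T cells without Pdcd1 and Gzmb the numbers were 1 of 24 and 0 of 31, which allows a share of up to 11.2% in the latter. Among CD4 T cells without Foxp3 they were 0 of 17, which allows up to 19.5%, and 2 of 21. Within the cycling cells, the log2 ratio of the libraries was 2.19 for Gzmc, 3.21 for Gzmd, 1.90 for Gzme, 2.50 for Gzmf and 1.42 for Gzmb. Cycling cells and members of a genotype came from the same library, so the cycling cells do not replicate the comparison.

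**Figure D2:**
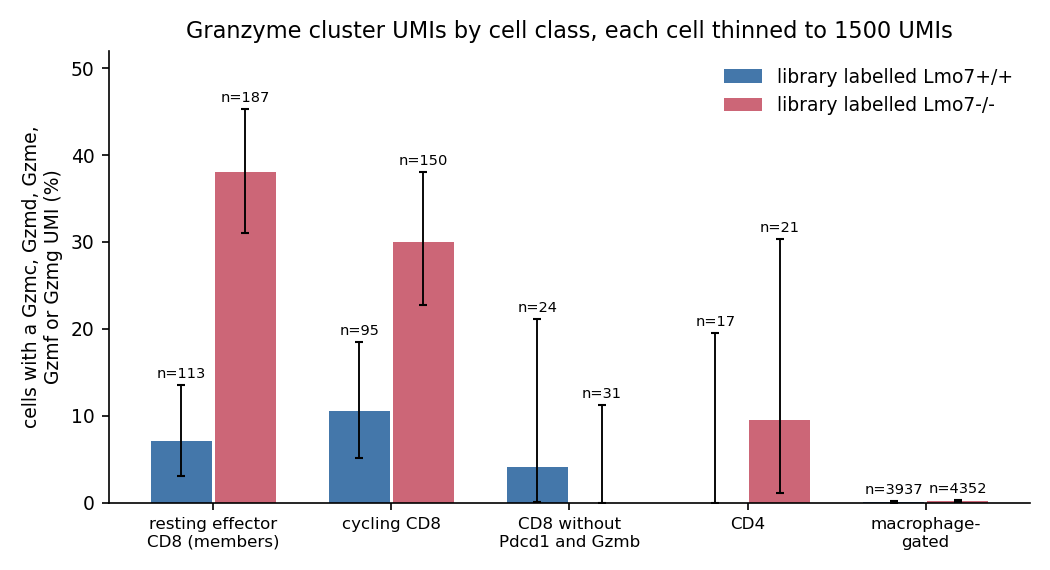
Share of cells (%) with at least 1 UMI of Gzmc, Gzmd, Gzme, Gzmf or Gzmg, by cell class and library, after thinning to 1500 UMIs, with exact 95% binomial intervals and the number of cells above each bar. The shares were 7.08% and 38% in the members, 10.5% and 30% in cycling CD8 T cells, and under 1% in macrophage-gated cells.

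In the Lmo7-/- library, members with cluster UMIs more often had perforin UMIs than the other members, which was not seen in the 8 such cells of the Lmo7+/+ library. In the Lmo7-/- library at 1500 UMIs, Prf1, which encodes perforin, was found in 74.6% (62.9 to 84.2) of the 71 cells with a cluster UMI and in 37.1% (28.3 to 46.5) of the 116 without. Gzmb was found in 87.3% and 51.7% of these cells, and Ccl5, a T cell chemokine, in 25.4% and 40.5%. Pdcd1 was found in 69% and 74.1%, and Nkg7 in 90.1% and 87.1%. In the Lmo7+/+ library, Prf1 was found in 12.5% (0.316 to 52.7) of the 8 cells with a cluster UMI and in 33.3% of the other 105. The shares with a cluster UMI, and those of other genes beside it, come from a separate random draw of the thinning than the other shares at 1500 UMIs, so their totals differ by a few cells.

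Other genes of the killing program had log2 ratios under 1. Prf1 had 323.6 CPM in the Lmo7+/+ members and 621.1 CPM in the Lmo7-/- members, a log2 ratio of 0.94 (0.65 to 1.24), and at 1500 UMIs it was found in 34.5% and 50.3% of them. Serpinb9, an intracellular inhibitor of granzyme B, had 466.9 and 833.3 CPM, a log2 ratio of 0.84 (0.59 to 1.08). Ifng, the gene for interferon gamma, had 33 and 95 UMIs, a log2 ratio of 0.84 (0.26 to 1.46). It was found in 13.3% and 11.8% of thinned members, a difference of -1.51 points that was 2.02 points at 1000 UMIs and 2.36 at 2500, so no direction is read from its share of cells. Nkg7 had 1665 and 1753 CPM, a log2 ratio of 0.07 (-0.06 to 0.21), and Fasl, the death ligand, had 26 and 66 UMIs, a log2 ratio of 0.66 (-0.01 to 1.37). Lamp1 went the other way with 212.4 and 135.3 CPM. Tnf had 10 and 8 UMIs (24.7 and 12.3 CPM), too few to read a direction.

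Over the whole list of cytotoxic effectors, summed levels outside the gate were 5877 and 8370 CPM, a log2 ratio of 0.51 (0.44 to 0.58). Gzmc to Gzmg held 320 of the 2379 UMIs summed for Lmo7+/+ and 1643 of the 5444 for Lmo7-/-. The ratio of the sum therefore rests in large part on these 5 genes. Of the 17 genes of the list that reached 50 counts in total, 5 were at least 2-fold higher in the library labelled Lmo7-/- (Gzmc, Gzmd, Gzme, Gzmf and Gzmg) and 1 was at least 2-fold lower (Gzma). Gzmd, Gzme and Gzmg passed this filter only through the Lmo7-/- library (5 and 186, 11 and 205, 0 and 54 UMIs). The counts and the median of the list are therefore a description. The median log2 ratio of the list was 0.66, against -0.01 for all 3400 genes of that depth. Of those 3400 genes, 51 (1.5%) were at least 2-fold higher and 23 (0.676%) at least 2-fold lower. Over the alternatives, these counts ran from 15 to 211 and from 5 to 177.

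Inhibitory receptors as a group had a ratio whose interval included 0. Their summed level outside the gate was 1161 and 1262 CPM, a log2 ratio of 0.12 (-0.04 to 0.29), with 0 of 7 genes at least 2-fold higher and 1 at least 2-fold lower. Pdcd1, a gate gene, had 617.6 and 785.6 CPM, a log2 ratio of 0.35 (0.13 to 0.57). Lag3 had 101.3 and 126.1 CPM, a log2 ratio of 0.32 (-0.24 to 0.89), and Ctla4 had 150.7 and 199.9 CPM, a log2 ratio of 0.41 (-0.04 to 0.87). Havcr2, which encodes TIM-3, had 133.4 and 139.9 CPM, a log2 ratio of 0.07 (-0.43 to 0.58), and was found in 14.2% and 17.6% of thinned members, a difference of 3.49 points that was -1.55 at 1000 UMIs and 16.9 at 2500, so no direction is read from it. Macrophage-gated cells, which express Havcr2 themselves, had 127.2 and 148.4 CPM, and CD4 T cells 50 and 32.66 CPM. Cd160, another receptor of this list, had 81.52 and 36.9 CPM, a log2 ratio of -1.14 (-1.97 to -0.34).

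Transcription factors linked to exhaustion had similar summed levels in the libraries, while single genes went both ways. Their summed log2 ratio was 0.01 (-0.09 to 0.11), and 0 of 10 genes with at least 50 counts reached a 2-fold difference. Tox, a driver of the exhausted state, had 190.2 and 204.5 CPM, a log2 ratio of 0.10 (-0.31 to 0.53). Nr4a2, which is induced by T cell receptor signals, had 699.1 and 553.5 CPM, a log2 ratio of -0.34 (-0.57 to -0.11). Ikzf2 had 207.5 and 127.6 CPM, whereas Bhlhe40 had 511.4 and 658 CPM. Tcf7, which marks progenitor-like cells, had 8 and 6 UMIs, and Slamf6 had 5 and 1.

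Il7r, which encodes the interleukin 7 receptor that sustains resting T cells, had the higher level in the Lmo7-/- members. It had 37 and 128 UMIs, or 91.4 and 196.8 CPM, a log2 ratio of 1.11 (0.57 to 1.68). At 1500 UMIs, 8.85% (4.33 to 15.7) and 24.1% (18.1 to 30.8) of members held an Il7r UMI, against 3.78% and 5.74% of macrophage-gated cells. Il7r was the 1 of 6 naive and memory genes that reached 2-fold, while the list as a whole had a summed log2 ratio of -0.00 (-0.19 to 0.19). Ccr7, the lymph node homing receptor, had 256.9 and 158.4 CPM, a log2 ratio of -0.70 (-1.11 to -0.29), but 1 Lmo7+/+ cell held 48 of its 104 UMIs there, and without the leading cell of each library the ratio was 0.01 (-0.49 to 0.51).

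Costimulatory receptors were summed to 2712 and 3401 CPM, a log2 ratio of 0.33 (0.22 to 0.43), with 0 of 8 genes past 2-fold. Icos, an inducible costimulator, accounted for much of this, with 632.4 and 1107 CPM and a log2 ratio of 0.81 (0.60 to 1.02). Tissue residency genes had a summed log2 ratio of 0.20 (0.10 to 0.30), with 0 of 7 past 2-fold. Among them, Rgs2, a regulator of G protein signaling, had 713.9 and 1036 CPM, a log2 ratio of 0.54 (0.34 to 0.74), and Cxcr6, a receptor for CXCL16, had 449.6 and 548.8 CPM, a log2 ratio of 0.29 (0.03 to 0.55). Itgae had 23 and 23 UMIs (56.82 and 35.36 CPM), Itga1 had 44 and 59 UMIs (108.7 and 90.71 CPM) and Rbpj had 464.4 and 418.2 CPM. The difference in the share of members with Itgae ran from -6.3 to 1.03 points over other depths. These genes are given without intervals, and no direction is read from them.

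Effector chemokines diverged from each other. Xcl1, which attracts cross-presenting dendritic cells, had 469.4 and 273.7 CPM, a log2 ratio of -0.78 (-1.08 to -0.48), and was found in 30.1% and 19.8% of thinned members. Ccl4 had 113.6 and 182.9 CPM, a log2 ratio of 0.69 (0.18 to 1.21). Csf1, a growth factor for macrophages, had 93.87 and 173.7 CPM, a log2 ratio of 0.89 (0.35 to 1.46). Ccl5 was the most abundant with 1359 and 1247 CPM, a log2 ratio of -0.12 (-0.28 to 0.03). The list had a summed log2 ratio of -0.10 (-0.23 to 0.02).

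Among the remaining lists, the summed log2 ratio was 0.18 (0.14 to 0.23) for interferon gamma response and MHC class I genes, 0.20 (0.14 to 0.26) for glycolysis and 0.33 (0.20 to 0.46) for hypoxia genes, the last at 0.16 (0.02 to 0.31) without cells holding 10 or more dendritic or fibroblast UMIs. It was 0.01 for both oxidative phosphorylation and T cell receptor signaling. Cytokine receptors had 0.11 (0.03 to 0.19), chemokine receptors 0.06 (-0.11 to 0.23), and type I interferon-stimulated genes -0.18 (-0.31 to -0.05), which turned to 0.05 after thinning. Receptors shared with natural killer (NK) cells had -0.02 (-0.15 to 0.10), although Cd7, a lymphocyte adhesion protein, was past 2-fold with 138.3 and 66.11 CPM. Genes of the S phase had -0.13 (-0.28 to 0.03) and genes of the G2 and M phases 0.30 (0.06 to 0.54). Genes induced at once by the T cell receptor had -0.04 (-0.12 to 0.04), and growth-associated genes -0.01 (-0.08 to 0.05). In the lists of this paragraph, at most 1 gene was past 2-fold in a direction.

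**Figure D3:**
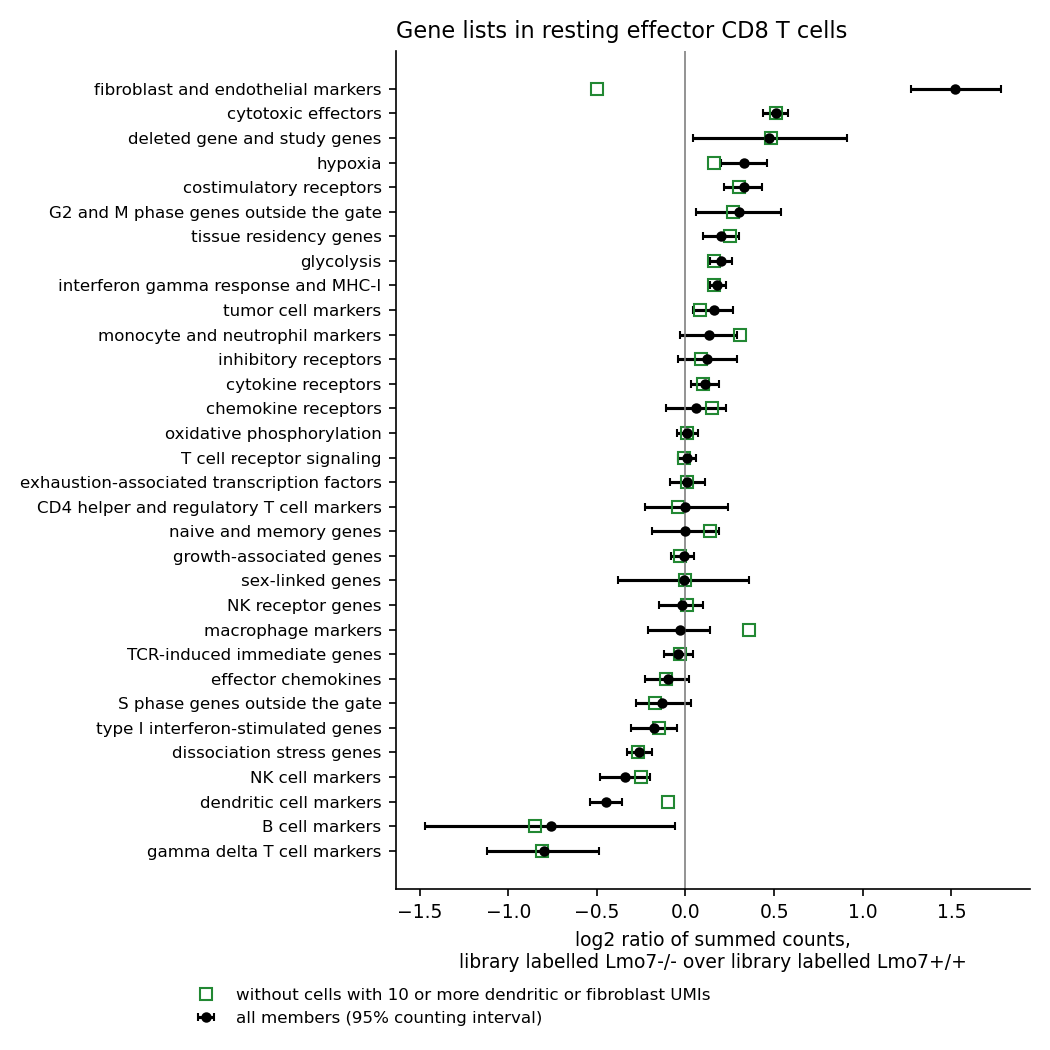
Log2 ratio of summed counts, library labelled Lmo7-/- over library labelled Lmo7+/+, for each gene list in resting effector CD8 T cells, with all members (points, 95% counting interval) and without cells holding 10 or more dendritic or fibroblast UMIs (squares). Cytotoxic effectors, a sum that includes Gzmc to Gzmg, were at 0.51 in both. The shift of the fibroblast and dendritic lists follows from the choice of the cells left out.

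Several of the largest differences were not T cell genes and lay in a handful of members. Bgn, a matrix proteoglycan, had 4 UMIs in the Lmo7+/+ members and 97 in the Lmo7-/- members, a log2 ratio of 3.92. The collagen chain genes Col1a1 (13 and 154 UMIs) and Col1a2 (5 and 97), Fstl1 (6 and 102) and Fbln2 (10 and 72), which are matrix genes of fibroblasts, had log2 ratios of 2.88, 3.59, 3.40 and 2.16. Of the fibroblast and endothelial markers, 4 of 4 genes with at least 50 counts were at least 2-fold higher, against 1.5% of all 3400 genes. Col1a1, Col1a2 and Col3a1 (14 and 59 UMIs) reached 50 counts only through the Lmo7-/- library, so the filter in part sets this count. The list summed to 159 and 734 UMIs (392.8 and 1128 CPM), led by Sparc with 83 and 315. In the Lmo7+/+ library 2 members with 10 or more such UMIs held 59.7% of them, and in the Lmo7-/- library 7 members held 89.2%. Mgl2, a lectin of dendritic cells and macrophages, had 7 and 51 UMIs, 50 of the 51 in 1 cell.

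Dendritic cell markers were also held by few members. They summed to 1962 and 2304 UMIs (4847 and 3542 CPM, log2 ratio -0.45), led by H2-Aa with 596 and 719, and 8 and 14 members with 10 or more held 88.9% and 85.3% of them. In all, 10 of 143 and 18 of 247 members held 10 or more UMIs of either list. They were deep, with medians of 7482.5 and 5402 UMIs, and Scrublet marked 1 and 2 of them. Whether these droplets held RNA of more than 1 cell was not tested.

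Without these cells, 133 and 229 members were left. The log2 ratio then was -0.60 for Col1a1, -0.13 for Col1a2, 0.61 for both Bgn and Fstl1 (2 and 5 UMIs each), and -1.30 for Fbln2. Of the granzymes, it was 4.35 for Gzmd, 3.42 for Gzme, 1.91 for Gzmc, 1.02 for Gzmf, at least 3.40 for Gzmg and -2.19 for Gzma. The cluster was found in 11 of 133 (8.27%) and 84 of 229 (36.7%) of them. The ratio was 0.85 for Prf1, 1.02 for Il7r and 0.51 for the sum of cytotoxic effectors. The granzyme ratios were close to those over all members. Col1a1 and Col1a2 are on the list by which the cells were left out, so their lower ratios follow from the choice of cells and are no separate result.

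The 10 genes with the lowest ratios were led by heat shock genes. Hspa1a, an inducible heat shock protein, had 128 UMIs in the Lmo7+/+ members and 21 in the Lmo7-/- members, a log2 ratio of -3.29, but 1 cell held 83 of the 128. Hspa1b, its close paralog, had 86 and 30 UMIs, a log2 ratio of -2.20, and 1 cell held 46 of the 86. Without the cells that Scrublet marked, the log2 ratio was -1.15 for Hspa1a and 0.00 for Hspa1b, and with the stricter cell filter -0.47 and 0.28, so Hspa1b did not keep its direction, and Hspa1a was lower in each of the 12 alternatives but by varying amounts. These 2 genes share sequence and their counts can be split between them. The summed list of dissociation stress genes, to which they belong, had 6976 and 5819 CPM, a log2 ratio of -0.26 (-0.33 to -0.19), with 2 of 19 genes at least 2-fold lower. After Gzma came Tpd52 (-1.72), Serpinb9b (-1.5), Aff1 (-1.49), Fabp5 (-1.31), Aqp1 and Tmem50b (both -1.25) and Itga4 (-1.23). Tpd52 was at -0.84 without cells holding 10 or more dendritic or fibroblast UMIs, Fabp5 at 0.07 with stricter gates, Aqp1 at 0.37 with no C1q UMI, Tmem50b at -0.14 after thinning and Serpinb9b at -0.62 as a mean of per-cell CPM. For Serpinb9b, 3 Lmo7+/+ cells held 65.9% of the UMIs there. Itga4, an integrin chain for entry into tissue, had 86 and 59 UMIs and Serpinb9b, a serpin related to Serpinb9, had 44 and 25.

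**Figure D4:**
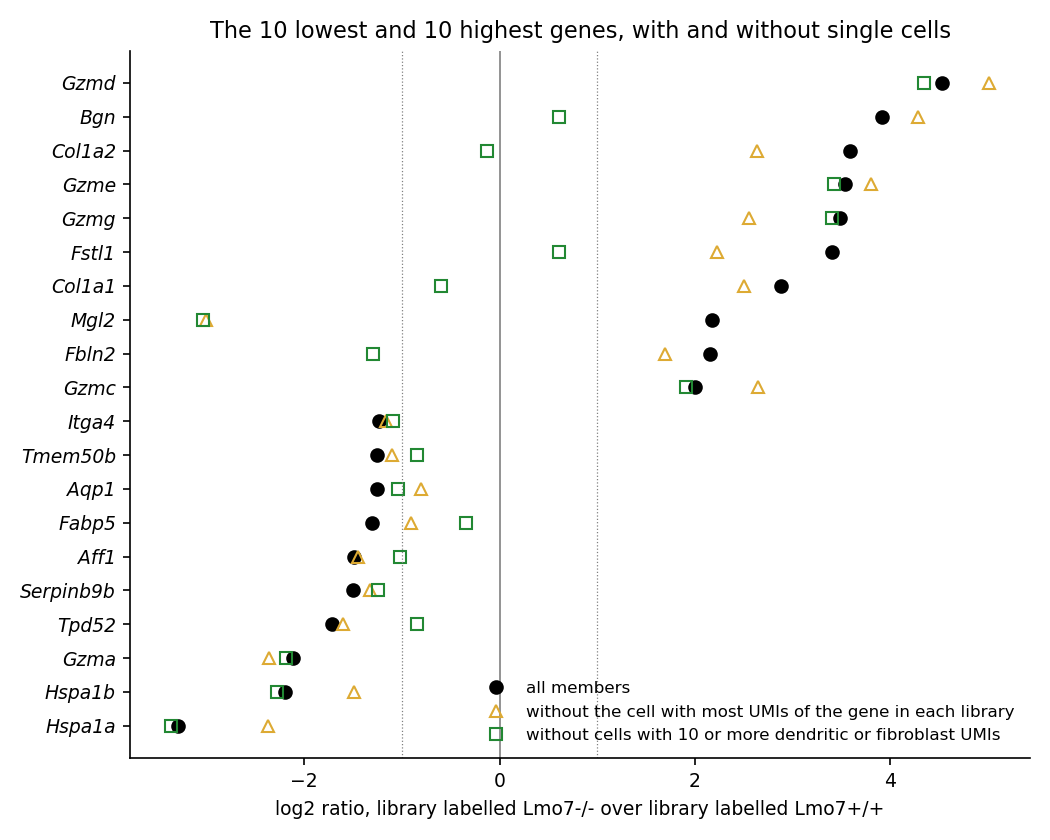
Log2 ratios of the 10 highest and 10 lowest genes among those with at least 50 counts, for all members (circles), without the cell with most UMIs of the gene in each library (triangles), and without cells with 10 or more dendritic or fibroblast UMIs (squares). Gzmg is a lower bound, Gzmc, Gzmd and Gzme keep their sign in every setting drawn, and Bgn, Col1a2, Fstl1, Col1a1, Mgl2 and Fbln2 lie nearer to 0 or below it in the squares.

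The other marker lists were compared in all members. Macrophage markers outside the gate summed to 1065 and 1041 CPM, led by Ctsb, with a log2 ratio of -0.03 (0.36 without the cells above). Monocyte and neutrophil markers had 1307 and 1430 CPM, mostly Ly6c2, which CD8 T cells also express. B cell markers had 37 and 35 UMIs, mostly Ighm, and erythroid markers had none. NK cell markers had 1890 and 1491 CPM, led by Irf8 (899.2 and 956.3 CPM), with a log2 ratio of -0.34, most of which came from Gzma, and Ncr1, a defining NK gene, had 2 and 0 UMIs. Gamma delta T cell markers had 434.8 and 249.1 CPM, a log2 ratio of -0.80, mostly from Tcrg-C2, which alpha beta T cells can also transcribe, while Il17a and Sox13 were at 0. Tumor cell markers had 2344 and 2617 CPM, mostly S100a6, and markers of CD4 helper and regulatory T cells had 622.5 and 624.2 CPM. The part of these cell types in the results was not tested. Of the sex-linked genes, only Xist had UMIs (103 and 164), in both libraries of female hosts.

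Members also varied among themselves in the gate genes. At 1500 UMIs, 29 of 113 Lmo7+/+ members (25.7%) and 83 of 187 Lmo7-/- members (44.4%) held UMIs of both Pdcd1 and Gzmb, 34.5% and 24.6% held Pdcd1 alone, and 30.1% and 22.5% Gzmb alone. Xcl1 was found in 43.6% and 30.4% of members with Pdcd1 alone, and in 14.7% and 19% of those with Gzmb alone. Ccl5 ran the other way, with 25.6% and 17.4% against 58.8% and 45.2%. Gzma was found in none of the 39 and 46 cells with Pdcd1 alone and in 20.6% and 9.52% of those with Gzmb alone. Tcf7 was found in 6.19% and 2.14% of thinned members.

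How resting effector cells differed from other T cells was tested over both genotypes. Counts were summed per library for 4 classes: the members, 254 cycling CD8 T cells with the same gates but at least 2 cycle UMIs, 77 CD8 T cells without Pdcd1 and Gzmb, and 67 CD4 T cells without Foxp3. Across 5466 genes outside the gates, edgeR's quasi-likelihood test with library as a covariate and Benjamini-Hochberg adjustment compared the 8 sums. The 2 libraries were the only replicates. With library as a covariate, p-values measure how far class differences varied between these 2 libraries, pooled over the 4 classes and moderated across genes. The libraries also differ in genotype, so a genotype effect on a class would be part of that spread. Genes seen to vary with the gate genes among the members (the granzyme cluster, Ccl5 and Xcl1) are partly selected by the gates on Pdcd1 and Gzmb, so their differences from classes without those gates are described without a p-value.

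Against cycling CD8 T cells, 141 genes (2.58%) were higher and 250 (4.57%) lower in the members. With DESeq2 in place of edgeR, 19 were higher and 67 lower. The cycle genes outside the gate followed the gate, since 20 of 20 genes of the G2 and M phases (median log2 fold -3.72) and 17 of 21 of the S phase (median -1.33) were lower. Ccna2, which encodes cyclin A2, had 9.881 and 7.687 CPM in the members and 279.8 and 338.3 CPM in cycling cells. Kif4, a mitotic kinesin, had no UMI in the members and 35 and 58 in cycling cells. Bub1, Nusap1, Ckap2l, Rrm2, Prc1, Bub1b, Nek2 and Kifc1 were the other lowest genes, each with at most 12 UMIs per library in the members and at least 31 in cycling cells. Growth-associated genes such as Ptma and Ran were lower in 12 of 15 (median -1.19), while 0 of 16 glycolysis genes and 0 of 28 oxidative phosphorylation genes passed the test. Without cells holding 10 or more dendritic or fibroblast UMIs, 7 of the glycolysis genes (such as Gapdh and Ldha) and 5 of the oxidative phosphorylation genes were lower.

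The genes that were higher in the members included chemokine, costimulatory and survival genes, several of which did not pass the test at matched depth (given with the depths of the classes). Ccl5 had 1359 and 1247 CPM in the members and 378.4 and 439.1 CPM in cycling cells, a log2 fold of 1.68 (edgeR, adjusted p = 6.07e-06). Of the costimulatory receptors, 4 of 9 rose (Icos, Cd28, Tnfrsf1b and Slamf7), with Icos at a log2 fold of 1.05 (edgeR, adjusted p = 0.00136). Il7r had a log2 fold of 1.05 (edgeR, adjusted p = 0.014), and the survival gene Bcl2 one of 0.92 (edgeR, adjusted p = 0.0197). Cxcr6 had 0.97 (edgeR, adjusted p = 0.00305), Areg, an epidermal growth factor receptor ligand, 1.84 (edgeR, adjusted p = 0.00745), and Neat1, a nuclear long noncoding RNA, 1.69 (edgeR, adjusted p = 0.00169). Of 16 cytotoxic genes 2 rose, Gzmf and Srgn, and of 10 inhibitory receptors none (median 0.54, against 0.01 over all genes). Other genes with large folds were Kdm5b (2.59), Ifit3 (2.28), Lilrb4a (2.20) and Lilr4b (1.72), each with at most 11 UMIs per library in cycling cells.

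Depth and dendritic markers moved with this contrast. Cycling cells had medians of 4809.5 and 4519.5 UMIs, more than the 2251 and 2126 of the members. Within cells of 1500 to 6000 UMIs, 19 genes were higher, 11 of them among the 141, and 136 lower, 121 of them among the 250. In that range Icos had a log2 fold of 0.67 (edgeR, adjusted p = 0.0194), Il7r 1.22 (edgeR, adjusted p = 0.0084) and Neat1 1.45 (edgeR, adjusted p = 0.0281), whereas Ccl5 had 0.65 (edgeR, adjusted p = 0.122) and Cxcr6 0.55 (edgeR, adjusted p = 0.143). Icos was then the 1 costimulatory receptor of 8 that passed, since Cd28 (0.39), Slamf7 (0.66) and Tnfrsf1b (0.53) did not, and Bcl2 had 0.73 (edgeR, adjusted p = 0.173). Without cells holding 10 or more dendritic or fibroblast UMIs, 114 of the 141 and 202 of the 250 were called again. Rab7b, Alox5ap and Plbd1, which ranked high among the 141, are abundant in myeloid cells, and 2 dendritic markers (H2-Ab1 and H2-Eb1) were higher in the members too.

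Against CD8 T cells without Pdcd1 and Gzmb, 12 genes (0.22%) were higher and 17 (0.311%) lower in the members. The granzyme cluster was nearly absent from those cells, where Gzmc, Gzmd and Gzme had no UMI in either library and Gzmf had 1 and 0. Ccl5 had 336.2 and 495.7 CPM there, against 1359 and 1247 in the members, a log2 fold of 1.67. Cxcr6 had a log2 fold of 1.5 (edgeR, adjusted p = 0.0123), Irf8, an interferon regulatory factor, 1.57 (edgeR, adjusted p = 0.0145), and Fcer1g, a signaling adaptor, 1.43 (edgeR, adjusted p = 0.0205). Xcl1 had 469.4 and 273.7 CPM in the members against 1049 and 718.8 CPM in the other cells, a log2 fold of -1.22. Ccl5 and Xcl1 varied with Gzmb and Pdcd1 among the members, so the gates set part of both differences. Nkg7 had a log2 fold of 0.38 (edgeR, adjusted p = 0.61) and Klrc1 one of 0.44 (edgeR, adjusted p = 0.648).

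In this contrast, 5 genes were higher within 1500 to 6000 UMIs, Ccl5 among them with a log2 fold of 1.55, and the others were Gzmc, Gzmd, Gzme and Gzmf, which the gates select in part. Cxcr6 had 1.13 (edgeR, adjusted p = 0.222), Irf8 1.16 (edgeR, adjusted p = 0.31) and Fcer1g 1.19 (edgeR, adjusted p = 0.569), so none of these 3 passed within that range. Cst3, a protease inhibitor that is abundant in dendritic cells, had a log2 fold of 2.26, and of -0.15 without cells holding 10 or more dendritic or fibroblast UMIs. Without those cells, 9 of the 12 higher genes but only 1 of the 17 lower genes were called again. The lower genes included Ccn1, Tsc22d1, Asns, Tcim, Sox4, Plk2, Myc, Cited2, Cnn3 and Col3a1, with log2 folds of -4.2 to -1.94. Several of them are tumor or stromal genes, and Sox4 was at -0.95 (edgeR, adjusted p = 0.864) without those cells.

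Against CD4 T cells without Foxp3, 63 genes (1.15%) were higher and 63 (1.15%) lower in the members. The CD4 class was not gated on Pdcd1 and Gzmb, so granzymes that go with Gzmb follow the gates in part. Of 16 cytotoxic genes, 8 were higher and 1, Srgn, lower. Nkg7 had 1665 and 1753 CPM in the members and 500 and 566.1 CPM in CD4 T cells, a log2 fold of 1.77 (edgeR, adjusted p = 0.00027). Prf1 had 131 and 404 UMIs in the members and 1 and 0 in CD4 T cells. Of 7 receptors shared with NK cells, 4 were higher, among them Klrd1 (CD94) with a log2 fold of 2.24 (edgeR, adjusted p = 0.000168) and Klre1, which had no UMI in CD4 T cells. Tcrg-C2, Cables1, Gm156, Gm36723 and Plet1 also had none there, but Plet1 lay in 4 of 143 and 5 of 247 members, where 3 cells held 98.4% and 90.9% of its UMIs.

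Xcl1 had 469.4 and 273.7 CPM in the members and 0 and 10.89 CPM in CD4 T cells. Il2rb had a log2 fold of 1.41 (edgeR, adjusted p = 0.000761), Nr4a2 one of 1.84 (edgeR, adjusted p = 0.000529) and Ccl5, which varied with the gate genes, one of 1.54. On the CD4 side, Penk, which encodes proenkephalin, had 1200 and 2623 CPM against 7.411 and 18.45 in the members, a log2 fold of -7.05 (edgeR, adjusted p = 3.28e-11). The chemokine gene Ccl1 had a log2 fold of -3.84 (edgeR, adjusted p = 1.2e-07), the helper T cell factor Maf -3.79 (edgeR, adjusted p = 3.99e-07), Runx1 -2.95 (edgeR, adjusted p = 0.000548), and Tnfrsf4 (OX40) -2.02 (edgeR, adjusted p = 0.00031). Tcf7, Ctla4 and Icos were lower as well, and Il17a and Tnfsf8 had 0 and at most 1 UMI per library in the members. Lgals7, Tiam1, Slc12a2 and Ccn4 completed the 10 lowest genes, with log2 folds of -4.45 to -3.08. Without cells holding 10 or more dendritic or fibroblast UMIs, 154 genes were higher and 134 lower, and 58 and 60 of the 63 genes were called again. CD4 T cells had medians of 1648 and 1642.5 UMIs, and within 1500 to 6000 UMIs 38 of the higher and 46 of the lower genes were called again, Tcf7 not among them (log2 fold -2.35, edgeR, adjusted p = 0.2).

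**Figure D5:**
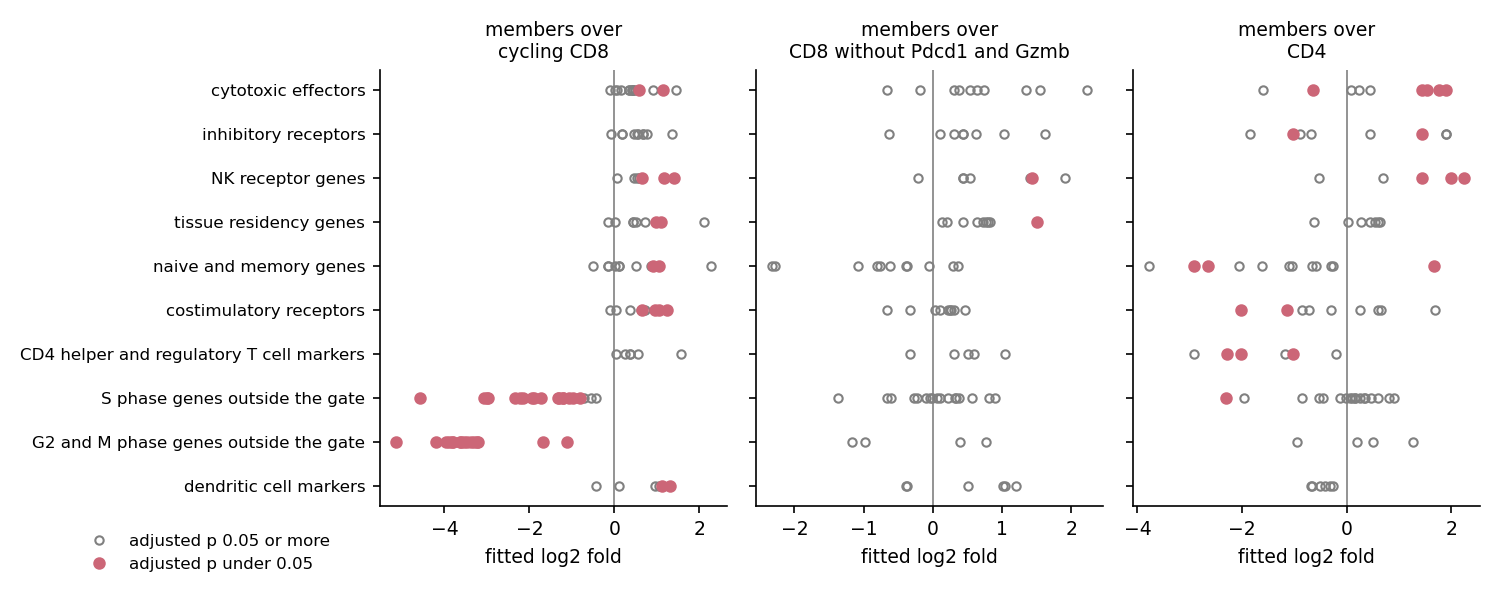
Fitted log2 folds of the members over each other T cell class for the genes of 10 lists (rows), with filled points for an edgeR adjusted p under 0.05, gate genes and genes with 3 or fewer counts in either class left out. Cycle genes lie to the left against cycling cells, cytotoxic and NK receptor genes mostly to the right against CD4 T cells, and few points are filled against CD8 T cells without Pdcd1 and Gzmb.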

How the data were processed

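The values the authors deposited are counts, namely UMIs for every gene in every droplet, made with Cell Ranger 2.1.1 on mm10 per the submitters' processing notes. Droplets had already been called as cells. The authors' test over single cells was not used, since cells are not replicates. The members, gene lists and tests were chosen with earlier results of these data known. Counts were summed over members and divided by their total UMIs (CPM, per 1000000). Log2 ratios carry exact binomial intervals and levels exact Poisson intervals. Ratios with 1 library at 0 used 3 counts. Genes with at least 50 counts were compared between libraries. Class contrasts used edgeR 4.0.16 (quasi-likelihood, TMM, filterByExpr, adjusted p under 0.05) in R 4.3.3, with DESeq2 1.42.0 as an alternative, and were tested on simulated data. Python 3.11.15 and scanpy 1.11.5 (Scrublet) were used for the rest. Positions and transcript sequences came from GENCODE M21, which matched 32158 of 32285 gene identifiers. Named genes were the gate genes, genes of 33 lists, the 10 highest and 10 lowest between libraries without mitochondrial and ribosomal protein genes, the 10 largest folds in each direction per class contrast with 1 sign in both libraries, the leading 5 Trbv genes and the 10 most abundant genes. Alternatives were a lenient and a strict cell filter, doublets removed, no C1q UMI, stricter gates, thinning, other library sizes and other count minimums. Leaving out cells with 10 or more dendritic or fibroblast UMIs, cells with shared barcodes, or the cell with most UMIs of a gene was chosen after seeing the data. Some genes of these lists are not reported here.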

Additional observations from a re-analysis of the deposited data

Results flagged for a closer look

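For 5 named genes with at least a 2-fold difference between the libraries in the members, the cycling CD8 T cells differed at least 2-fold in the opposite direction. In the cycling cells, the log2 ratio of the library labelled Lmo7-/- over that labelled Lmo7+/+ was 1.42 for Gzma, against -2.11 in the members, with 24 and 83 UMIs. It was -3.10 for Fbln2, -2.17 for Sparc, -1.59 for Col1a1 and -1.39 for Fstl1, against 2.16, 1.24, 2.88 and 3.40 in the members. These positive ratios rested on few members. Without members holding 10 or more dendritic or fibroblast UMIs, the ratio was -1.30 for Fbln2, -0.60 for Col1a1 and 0.61 for Fstl1. Col1a1 is on the list by which those members were left out. Of 3280 genes with counts in both classes, 10 showed such opposite differences, the others being Fn1, Cald1, Icam1, Serpinf1 and Ppic. With 1 library per genotype, the difference between the classes was not tested.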

How the results depend on the processing

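Over 172 results, 842 of 1010 alternatives stayed within counting error, within 1.5 times a count or, for median folds of the class contrasts, within a fixed distance. Another 150 lay outside and 18 were counted as turning the direction. For gene ratios a turn was counted only where the interval over all members left out 0, and for median folds only where the median was large. Values near 0 changed sign more often. The sum for T cell receptor signaling kept its sign in 4 of 11 alternatives. The difference in the share of kept cells was 0.687 points with the strict filter and 0.635 with stricter gates. The difference in the cycling share was 0.939 points with no C1q UMI and 4.92 with gates after thinning. Genes at least 2-fold higher numbered 23 with stricter gates, 22 after thinning, 29 without cells with dendritic or fibroblast UMIs, 211 at a minimum of 20 counts and 15 at 100, and 2-fold lower genes 15, 8, 23, 177 and 5. The cytotoxic sum was 0.44 with no C1q UMI and 0.62 after thinning, and that of inhibitory receptors 0.31 with stricter gates. Sums turned to 0.05 for type I interferon genes after thinning, to 0.31 for dendritic and -0.04 for tumor markers with stricter gates, and to -0.50 for fibroblast markers without cells with dendritic or fibroblast UMIs. In that last setting Col1a1 turned to -0.60, Col1a2 to -0.13, Fbln2 to -1.30 and Mgl2 to -3.04. Mgl2 was -2.86 with stricter gates and -3.0 without its leading cell. Hspa1b was 0.28 with the strict filter and 0.00 without doublets, Fabp5 0.07 with stricter gates and Aqp1 0.37 with no C1q UMI. Higher and lower genes against cycling cells numbered 19 and 136 within 1500 to 6000 UMIs, 297 and 488 with those classes alone, 19 and 67 by DESeq2, and 247 higher without cells with dendritic or fibroblast UMIs. Against CD8 T cells without Pdcd1 and Gzmb they numbered 65 and 40 with no filter, 5 and 1 within 1500 to 6000 UMIs, 30 and 30 with no C1q UMI and 34 and 51 alone, with 2 lower without cells with dendritic or fibroblast UMIs and 8 lower by DESeq2. Against CD4 T cells they numbered 154 and 134 without cells with dendritic or fibroblast UMIs and 118 and 124 alone, and 197 were higher with no filter. The median of G2 and M genes against CD8 T cells without Pdcd1 and Gzmb was -0.39 in the Lmo7+/+ library alone, and that of inhibitory receptors against CD4 T cells -0.05 in the Lmo7-/- library alone. The causes were not tested. No paired analysis was possible because each genotype had 1 library, so leaving out a library was not possible between genotypes, and the class contrasts already paired classes by library. At 143 and 247 members, genes under 50 counts could not be compared with useful precision.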
